A study of Mus musculus with 12 samples.

Results

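The 9 genes described here encode surface proteins by which the cells of this study were sorted or myeloid progenitors are recognised, or a close relative (Fcgr4). The rule lists them by name and uses no measured value, although it was written with earlier results of these data known. It holds Fcgr2b and Fcgr3 for CD16/32, their relative Fcgr4, Itgam for CD11b, and Ly6g, Ly6c1 and Ly6c2 for Gr1. Cd34 and Ly6a are in it as progenitor markers. Of these 9 genes, 8 had a row of their own and passed the filter on low values, among 16860 genes tested. Ly6a, which encodes Sca-1, was matched to no row of its own by symbol or gene ID and is not analysed here.

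All cells came from Kit-enriched bone marrow of Tet2fl/fl;CreER mice and carried a retrovirus, MigR1-AE-IRES-GFP, that expresses the leukaemia fusion protein AML1-ETO together with GFP. After 3 rounds of replating they were grown in suspension with SCF, IL-3 and IL-6 (10 ng/ml each for IL-3 and IL-6). The 4 groups, with 3 arrays each, were Tet2-/- cells at passage 10, Tet2-/- cells at passage 2, Tet2fl/fl cells at passage 10 and Tet2fl/fl cells at passage 2. Tet2-/- cells had received 200 nM 4-hydroxytamoxifen (4-OHT), which activates CreER, for 2 passages (4 days), and Tet2fl/fl cells had received ethanol. The drug, active Cre and the loss of Tet2, whose product oxidises 5-methylcytosine, came together in these cells, and their effects cannot be told apart. Before RNA was taken, every sample was sorted for GFP and CD16/32 and against CD11b and Gr1.

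CD16 and CD32 are low-affinity receptors for the Fc part of IgG. In mouse bone marrow, high CD16/32 together with CD34 and the absence of Sca-1 marks granulocyte-monocyte progenitors. CD11b pairs with CD18 to form the integrin Mac-1 and appears as myeloid cells mature, and antibodies to Gr1 bind Ly6G, a neutrophil protein, and also Ly6C, which monocytes carry. The gate acts on protein at the cell surface, whereas the arrays measure RNA of the sorted cells, and in such bulk samples fewer cells of a type and less RNA per cell cannot be told apart.

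Array medians lay between log2 5.57 and 5.68. Tet2 itself read between 9.64 and 9.93 in Tet2-/- cells at passage 10 and between 9.80 and 9.93 in Tet2fl/fl cells at that passage (-0.05 ± 0.09, SE of the fit, adjusted p = 0.921), which does not check the deletion because the row gives 1 value for the whole gene. All 9 progenitor markers looked at, among them Mpo and Elane, were above the filter, as were 14 of 15 markers of maturing neutrophils, 5 of 7 of B cells and 4 of 8 of T and NK cells. Of the T and NK cell markers, Cd3g, Ncr1 and Klrb1c lay below the filter.

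None of the 8 genes passed the test in any of the 7 contrasts, with or without the replicate number as a block. Over all genes, the share that passed was 0.225% for Tet2-/- against Tet2fl/fl cells at passage 10, 0.00593% for the same comparison at passage 2, 2.98% for passage 10 against passage 2 in Tet2-/- cells and 0% for that comparison in Tet2fl/fl cells. With the block these shares were 1.31%, 0.409%, 7.94% and 0.0415%. For the interaction 0% passed, for the mean of both genotype differences 1.72%, and for the mean of both passage differences 7.77%; with the block, 0.00593%, 5.41% and 13.2% did. At these background shares, 0 of 8 is not a result about these genes, so levels and intervals of the differences are given below. All standard errors and intervals printed are from the fit without the block, unless stated. With the block, the standard errors at passage 10 between genotypes were 0.115 for Ly6c2 (against 0.24) and 0.33 for Ly6g (against 0.48). They were 0.086 for Fcgr3 (against 0.12) and 0.26 for Fcgr4 (against 0.24), so the printed intervals depend on that choice.

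Before adjustment, p lay under 0.05 for 1 of the 8 genes between genotypes at passage 10 (Ly6g), against 10.6% of all genes, and for 0 at passage 2, against 9.95%. Between passages it did so for 2 in Tet2-/- cells (Fcgr3 and Ly6g), against 21.6%, and for 0 in Tet2fl/fl cells, against 10.2%. None did in the interaction (3.22% of all genes), the mean genotype difference (16.1%) or the mean passage difference (26.8%). With the block the numbers were 2 of 8 at passage 10 (14.5% of all genes), 0 at passage 2 (13.4%), 3 in Tet2-/- cells (26%), 0 in Tet2fl/fl cells (14%), 3 in the interaction (4.97%), 2 in the mean genotype difference (20.4%) and 3 in the mean passage difference (31.5%).

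The receptors selected by the gate, and their relative Fcgr4, come first. Fcgr2b encodes CD32, the inhibitory IgG receptor. It read log2 11.54, 11.37 and 11.58 in Tet2-/- cells at passage 10 and 11.47, 11.53 and 11.54 at passage 2, against 11.66, 11.53 and 11.50 in Tet2fl/fl cells at passage 10 and 11.44, 11.46 and 11.61 at passage 2. The groups overlapped throughout, and all 12 arrays lay within 0.29 log2 units. The genotype difference was -0.06 ± 0.08 at passage 10 (95% interval -0.25 to 0.12, adjusted p = 0.872) and 0.0070 ± 0.08 at passage 2 (-0.18 to 0.19, adjusted p = 0.988), values after ± being standard errors of the fit with n = 3 arrays per group. The end of its intervals farthest from 0, over both genotype and both passage comparisons, corresponded to 1.19-fold, the narrowest bound among the 8 genes.

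Fcgr3 encodes CD16, the activating receptor that signals through the Fc receptor gamma chain. It read 11.13, 10.94 and 11.12 in Tet2-/- cells at passage 10 and 10.77, 10.57 and 11.01 at passage 2, against 11.00, 10.71 and 10.95 in Tet2fl/fl cells at passage 10 and 10.91, 10.83 and 10.90 at passage 2. Tet2-/- cells at passage 10 had the highest mean, and their range overlapped those of Tet2-/- cells at passage 2 and of Tet2fl/fl cells at passage 10. Between passages the difference in Tet2-/- cells was 0.28 ± 0.12 (interval 0.03 to 0.54, unadjusted p = 0.0326, adjusted p = 0.189, with the block 0.0722), and it was positive for 3 of 3 replicate numbers. In Tet2fl/fl cells that difference was 0.0087 ± 0.12 (adjusted p = 0.986). How often all 3 replicate numbers share a sign was not counted over all genes. They did so also for Ly6g and Ly6c2 between genotypes at passage 10 and between passages in Tet2-/- cells. The same held for Fcgr4 and Cd34 between genotypes at passage 2, and for Ly6c1 and Cd34 between passages in Tet2fl/fl cells.

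The genotype difference of Fcgr3 was 0.18 ± 0.12 at passage 10 (interval -0.08 to 0.43, adjusted p = 0.668), positive for 3 of 3 replicate numbers, and -0.10 ± 0.12 at passage 2 (-0.35 to 0.16, adjusted p = 0.831). The passage comparison in Tet2-/- cells and the genotype comparison at passage 10 share the 3 Tet2-/- arrays of passage 10. Without Tet2fl/fl passage 10 replicate 2 the genotype difference of Fcgr3 at passage 10 was 0.089, and without Tet2-/- passage 2 replicate 2 its passage difference in Tet2-/- cells was 0.18. The change of the genotype difference between passages was 0.27 ± 0.16 (adjusted p = 0.999, with the block 0.961).

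Fcgr4 encodes the activating receptor that mouse monocytes and neutrophils carry and that lies between Fcgr2b and Fcgr3 on chromosome 1. It read 5.36, 6.07 and 5.54 in Tet2-/- cells at passage 10 and 5.77, 5.70 and 5.90 at passage 2, against 6.37, 5.27 and 5.76 in Tet2fl/fl cells at passage 10 and 5.44, 5.44 and 5.69 at passage 2. At passage 2 the genotypes did not overlap, though the lowest Tet2-/- array (5.698) and the highest Tet2fl/fl array (5.693) nearly met. It was the only one of the 8 genes without overlap there, against 15.3% of all genes, and the difference was 0.27 ± 0.24 (adjusted p = 0.765). At passage 10 the difference was -0.14 ± 0.24 (adjusted p = 0.909).

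**Figure D1:**
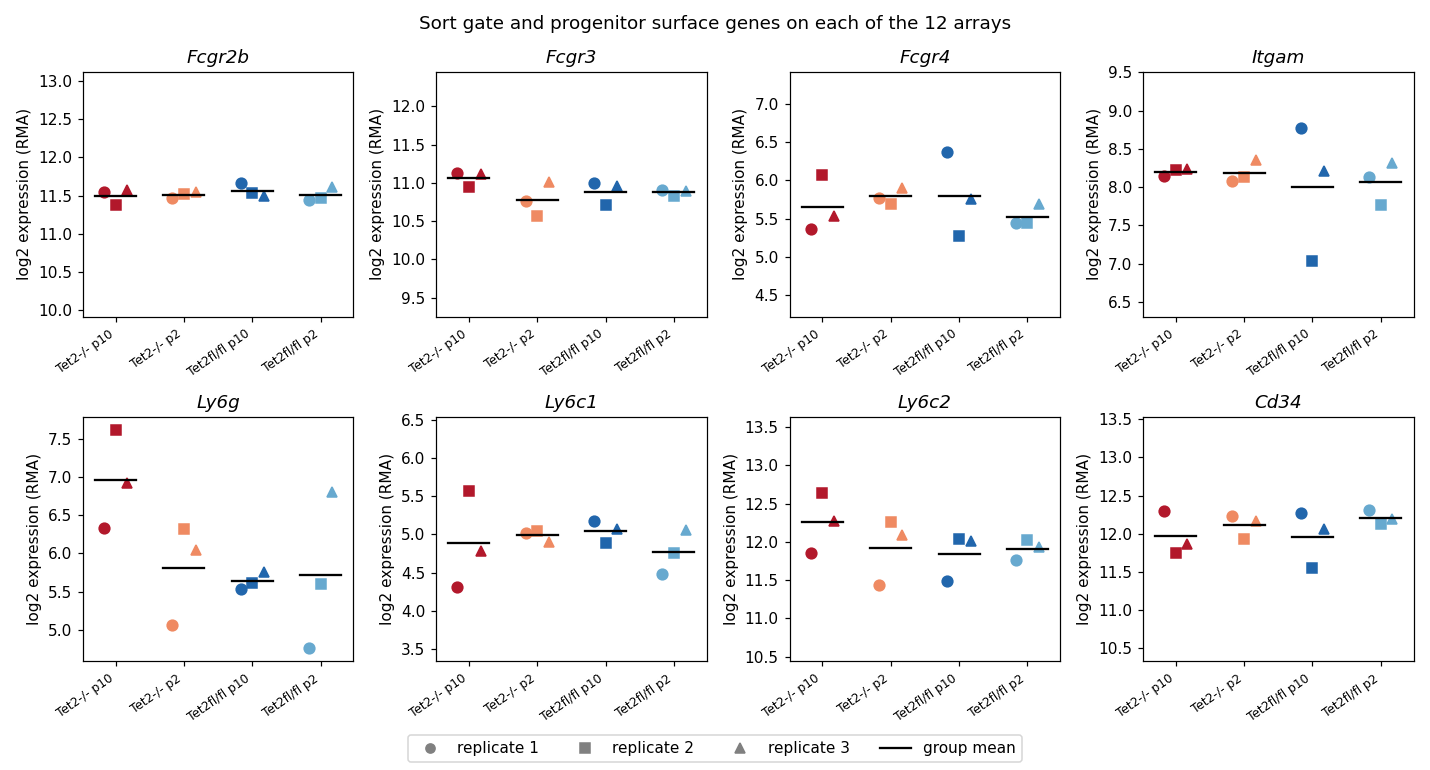
Log2 expression (RMA) of the 8 measured genes on each array; each panel spans the same number of log2 units, colours are the 4 groups, symbols the replicate numbers and bars the group means. Fcgr2b stays within 0.29 log2 units over the 12 arrays, while Ly6g spans 2.84.

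Of the receptors' partners and signalling genes, listed with other Fc receptor genes such as Fcer1a, 22 of 24 were tested. None passed in either genotype or either passage comparison; their median difference was -0.07 at passage 10 and -0.11 at passage 2 between genotypes, beside -0.0085 and -0.0029 over all genes, and 17 of the 22 were negative at passage 10 and 19 at passage 2. Fcer1g, the gamma chain used by Fcgr3 and Fcgr4, averaged 12.28 ± 0.06 in Tet2-/- and 12.37 ± 0.17 in Tet2fl/fl cells at passage 10 (SD, n = 3 each), and 12.17 ± 0.25 in Tet2-/- and 12.29 ± 0.13 in Tet2fl/fl cells at passage 2. Nearest to passing between genotypes at passage 10 were Fcer1a, the IgE-binding chain (-2.48, adjusted p = 0.0753, with the block 0.0340), and the docking protein gene Dok1 (-0.20, adjusted p = 0.595). At passage 2 they were Inpp5d, which encodes the phosphatase SHIP1 recruited by Fcgr2b (-0.24, adjusted p = 0.391), and Fcrl5 (-0.24, adjusted p = 0.494).

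Lat2, an adaptor of Fc receptor signalling, was the 1 gene of that list to pass in the mean of both passage differences (0.59, adjusted p = 0.0351). In that contrast 7.77% of all genes passed. With the block, Lat2 and Dok1 were higher and Fcgr1 was lower, against 13.2% of all genes. Lat2 averaged 11.29 ± 0.19 at passage 10 and 10.54 ± 0.36 at passage 2 in Tet2-/- cells, and 11.18 ± 0.13 at passage 10 and 10.74 ± 0.39 at passage 2 in Tet2fl/fl cells (SD, n = 3 each). Its call was lost without any 1 of 10 of the 12 arrays (adjusted p up to 0.0810), the 2 others being Tet2fl/fl passage 2 replicate 2 and Tet2-/- passage 2 replicate 2. In Tet2-/- cells alone the passage difference was 0.75 (adjusted p = 0.0716, with the block 0.00911).

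The markers that the gate selects against follow. Itgam, the CD11b chain, read 8.15, 8.23 and 8.24 in Tet2-/- cells at passage 10 and 8.08, 8.13 and 8.35 at passage 2, against 8.78, 7.04 and 8.21 in Tet2fl/fl cells at passage 10 and 8.13, 7.77 and 8.31 at passage 2. Both the highest and the lowest of the 12 arrays belonged to Tet2fl/fl cells at passage 10, and the groups overlapped. Its SD was 0.05 in Tet2-/- and 0.89 in Tet2fl/fl cells at passage 10, a contrast that was not tested. The genotype difference was 0.20 ± 0.33 at passage 10 (95% interval -0.52 to 0.92, adjusted p = 0.907) and 0.12 ± 0.33 at passage 2 (-0.60 to 0.83, adjusted p = 0.941). Without the lowest array, Tet2fl/fl replicate 2 at passage 10, the passage 10 difference was -0.29.

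The low Itgam array was also low for some, though not all, other myeloid genes. It had the lowest value of all 12 arrays for the azurophil granule gene Elane (8.27, against 8.92 to 12.03 elsewhere), for Mpo (10.90, against 11.60 to 12.67) and for the calprotectin gene S100a8 (5.84, against 6.31 to 10.90). Its mean of the maturing neutrophil markers (6.58) was the lowest of the 12 arrays. Its mean of mast cell and basophil markers (11.69) was the highest. Tet2-/- passage 10 replicate 2, with a neutrophil marker mean of 6.72, read 8.23 for Itgam. Elane, Mpo and S100a8 were singled out after the values of the low Itgam array were seen. The progenitor and neutrophil markers that were not low on that array were not counted. The part of the low Itgam array in the spread of Itgam was not tested.

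Of 18 listed partners and ligands of CD11b and other alpha chains that pair with CD18, 13 were tested. None passed in either genotype or either passage comparison. In the mean of both genotype differences 2 were higher (F10 and Thy1) and 1 lower (Icam1) with the block, against 0 without it. The shares over all genes were 5.41% with the block and 1.72% without it. Itgb2, the CD18 chain with which CD11b pairs, read 11.12, 11.23 and 11.45 in Tet2-/- cells at passage 10 and 10.61, 11.24 and 10.57 at passage 2, against 10.78, 10.86 and 10.87 in Tet2fl/fl cells at passage 10 and 10.45, 10.90 and 10.42 at passage 2. At passage 10 the genotypes did not overlap for Itgb2, as for 16.4% of all genes, with a difference of 0.43 ± 0.18 (adjusted p = 0.422). Nearest to passing at passage 10 were F10, the gene of coagulation factor X (1.23, adjusted p = 0.138), and Thy1 (0.56, adjusted p = 0.245). At passage 2 they were Thy1 (0.47, adjusted p = 0.391) and Cd47 (0.19, adjusted p = 0.391), and between passages in Tet2-/- cells they were F10 (0.79, adjusted p = 0.159) and Itgal, the alpha chain of LFA-1 (0.26, adjusted p = 0.164).

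The Gr1 genes lie in the Ly6 cluster on chromosome 15 and are closely related copies. Whether their array probes take up RNA of one another was not tested, so their values are uncertain in that respect. Their promoter windows (RefSeq, GRCm38.p6) are printed to show how alike the sequence around their starts is. Each is 300 bases long, with 250 bases before an annotated start of the gene and 50 after it. For Ly6g, Ly6c1, Ly6c2 and Fcgr3, 2 windows each were listed, and only the first was used here and below. The windows are chr15:75155011-75155310 on the plus strand for Ly6g, chr15:75048788-75049087 on the minus strand for Ly6c1 and chr15:75111922-75112221 on the minus strand for Ly6c2. Capitals mark a run of 16 bases that all 3 windows share.
Ly6g: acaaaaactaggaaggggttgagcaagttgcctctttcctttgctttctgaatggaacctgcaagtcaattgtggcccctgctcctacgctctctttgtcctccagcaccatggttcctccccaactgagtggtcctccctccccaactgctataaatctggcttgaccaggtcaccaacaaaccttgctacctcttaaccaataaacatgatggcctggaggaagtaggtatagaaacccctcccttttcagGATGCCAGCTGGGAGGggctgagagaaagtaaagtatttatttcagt
Ly6c1: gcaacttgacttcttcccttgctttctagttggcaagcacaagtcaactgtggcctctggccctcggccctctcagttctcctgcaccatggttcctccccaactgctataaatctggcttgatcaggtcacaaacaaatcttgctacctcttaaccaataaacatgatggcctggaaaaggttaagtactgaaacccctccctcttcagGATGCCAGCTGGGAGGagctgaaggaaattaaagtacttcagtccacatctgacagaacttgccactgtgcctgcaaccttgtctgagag
Ly6c2: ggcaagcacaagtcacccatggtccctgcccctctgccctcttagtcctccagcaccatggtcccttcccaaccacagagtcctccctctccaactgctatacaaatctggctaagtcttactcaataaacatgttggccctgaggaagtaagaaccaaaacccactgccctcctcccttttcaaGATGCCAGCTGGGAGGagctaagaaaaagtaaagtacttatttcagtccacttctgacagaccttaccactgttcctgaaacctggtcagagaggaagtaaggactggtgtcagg
Aligned in pairs, the windows of Ly6g and Ly6c1 were identical at 86.4% of 250 aligned bases, those of Ly6g and Ly6c2 at 83.6% of 214, and those of Ly6c1 and Ly6c2 at 82.3% of 260.

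Searched on both strands, the letters GAGGAAGT, a form of the site bound by ETS factors such as PU.1, occurred 1 time in the window of Ly6g, 2 times in that of Ly6c2 and 0 times in that of Ly6c1, and 3.28% of 27025 windows of the same length held them. TATAAA occurred 1 time each for Ly6g and Ly6c1 and 0 times for Ly6c2 (14.2% of windows). TGTGGT, the core of the site bound by RUNX1, the DNA-binding partner within AML1-ETO, occurred 1 time for Ly6c2 and 0 times for Ly6g and Ly6c1 (16.9% of windows). Of the 5 other genes measured, only Fcgr4 held any of these letters (TGTGGT 2 times and GAGGAAGT 1 time). CpG dinucleotides, the bases that Tet2 acts on when methylated, numbered 1 in the windows of Ly6g and of Ly6c1 and 0 in that of Ly6c2, against a median of 7 over all windows, and 5.78% of windows had 0. These matches describe letters and show no binding.

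Ly6g, the neutrophil protein that the gate excludes, had the largest difference of the 8 genes. It read 6.34, 7.61 and 6.92 in Tet2-/- cells at passage 10 and 5.06, 6.32 and 6.04 at passage 2, against 5.54, 5.61 and 5.76 in Tet2fl/fl cells at passage 10 and 4.77, 5.60 and 6.80 at passage 2. All 3 Tet2-/- arrays of passage 10 lay above all Tet2fl/fl arrays of that passage, and above the Tet2-/- arrays of passage 2 by a narrow gap (6.336 against 6.317). At passage 2 the genotypes overlapped. It was the only one of the 8 genes without overlap at passage 10, against 16.4% of all genes, and the only one between passages in Tet2-/- cells, against 28.3%.

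At passage 10 the genotype difference of Ly6g was 1.32 ± 0.48, or 2.50-fold with a 95% interval of 1.21 to 5.15. It was positive for 3 of 3 replicate numbers, a pattern that was not counted over all genes. It did not pass (unadjusted p = 0.0177, adjusted p = 0.338, with the block 0.0887). At passage 2 the difference was 0.09 ± 0.48 (interval -0.96 to 1.13, adjusted p = 0.971), and the interaction was 1.23 ± 0.67 (unadjusted p = 0.0936, adjusted p = 0.999). The passage difference was 1.15 ± 0.48 in Tet2-/- cells (interval 0.10 to 2.19, adjusted p = 0.193, with the block 0.0628) and -0.08 ± 0.48 in Tet2fl/fl cells (adjusted p = 0.963). With arrays weighted by their fit, the passage difference in Tet2-/- cells was 1.41 and passed (adjusted p = 0.0478), the only call among the 8 genes under any alternative. Without weights 2.98% of all genes passed in that comparison. The share with weights is not given here, so this call cannot be set against it. The genotype comparison at passage 10 and the passage comparison in Tet2-/- cells share the 3 Tet2-/- arrays of passage 10.

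**Figure D2:**
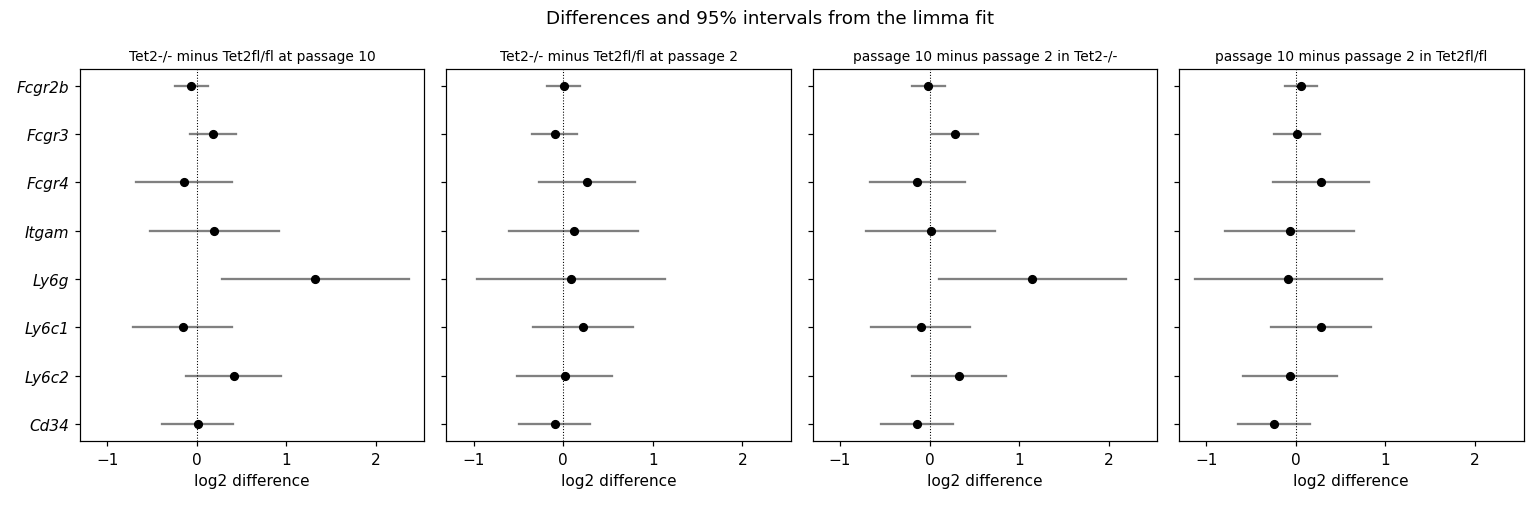
Differences on the log2 scale for the 8 genes, with 95% intervals, for each genotype and passage comparison. Ly6g reaches 1.32 at passage 10 between genotypes, and no difference passed the test.

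Ly6c2 and Ly6c1 encode the Ly6C proteins of monocytes. Ly6c2 read 11.85, 12.64 and 12.27 in Tet2-/- cells at passage 10 and 11.43, 12.26 and 12.09 at passage 2, against 11.49, 12.04 and 12.01 in Tet2fl/fl cells at passage 10 and 11.77, 12.02 and 11.94 at passage 2. The groups overlapped in every comparison. The genotype difference was 0.41 ± 0.24 at passage 10 (interval -0.12 to 0.94, adjusted p = 0.608, with the block 0.119), positive for 3 of 3 replicate numbers, and 0.02 ± 0.24 at passage 2 (-0.51 to 0.55, adjusted p = 0.990). With the block the standard error of the passage 10 difference was 0.115 (limma, unadjusted p = 0.00501), so the printed interval holds only without it. The passage 10 value of Ly6c2 was 0.22 without Tet2-/- replicate 2 and 0.23 without Tet2fl/fl replicate 1 of that passage.

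Ly6c1 read 4.32, 5.56 and 4.78 in Tet2-/- cells at passage 10 and 5.02, 5.05 and 4.90 at passage 2, against 5.18, 4.89 and 5.07 in Tet2fl/fl cells at passage 10 and 4.48, 4.76 and 5.06 at passage 2. Tet2-/- cells at passage 10 held both its lowest and its highest array. Its mean of 4.92 lay 0.22 above the filter, and 2 arrays were below the filter value of 4.70. The genotype difference was -0.16 ± 0.25 (adjusted p = 0.901) for passage 10 arrays and 0.22 ± 0.25 (adjusted p = 0.820) for those of passage 2.

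The mean level of other markers of maturing neutrophils was not highest where Ly6g was highest. The mean of the 14 markers tested ranged from 6.72 to 7.44 in Tet2-/- cells at passage 10 and from 7.65 to 8.42 at passage 2, against 6.58 to 8.08 in Tet2fl/fl cells at passage 10 and 7.68 to 8.97 at passage 2. In the passage comparison of Tet2-/- cells 3 of the 14 differences were positive and 11 negative, with a median of -0.33 beside 0.04 over all genes. None of the 14 passed in it. With the block, under which 7.94% of all genes passed, Padi4, an enzyme that citrullinates histones in neutrophils, was higher. Ngp, Mmp8, S100a8, S100a9 and Chil3 were lower with the block. Between genotypes at passage 10, 5 of the 14 differences were positive and 9 negative, with a median of -0.26, and none passed.

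In the mean of both passage differences 1 of the 14 markers was higher and 1 lower, where 7.77% of all genes passed. The granule gene Ngp fell by 1.81 (adjusted p = 0.0275) and Padi4 rose by 0.38 (adjusted p = 0.0254). Each call was lost without any 1 of 6 of the 12 arrays (adjusted p up to 0.0671 for Ngp and 0.0635 for Padi4). For both genes these included Tet2-/- passage 10 replicate 2, Tet2-/- passage 2 replicates 1 and 3, Tet2fl/fl passage 10 replicate 3 and Tet2fl/fl passage 2 replicate 3. For Ngp the sixth was Tet2-/- passage 10 replicate 3, and for Padi4 it was Tet2fl/fl passage 10 replicate 2. Over the 12 arrays, which share groups and replicate numbers, the mean of the 14 markers had r = -0.21 with Ly6g, -0.44 with Ly6c2, 0.59 with Itgam and 0.74 with Cd34. The part of maturing neutrophils in the level of Ly6g was not tested.

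**Figure D3:**
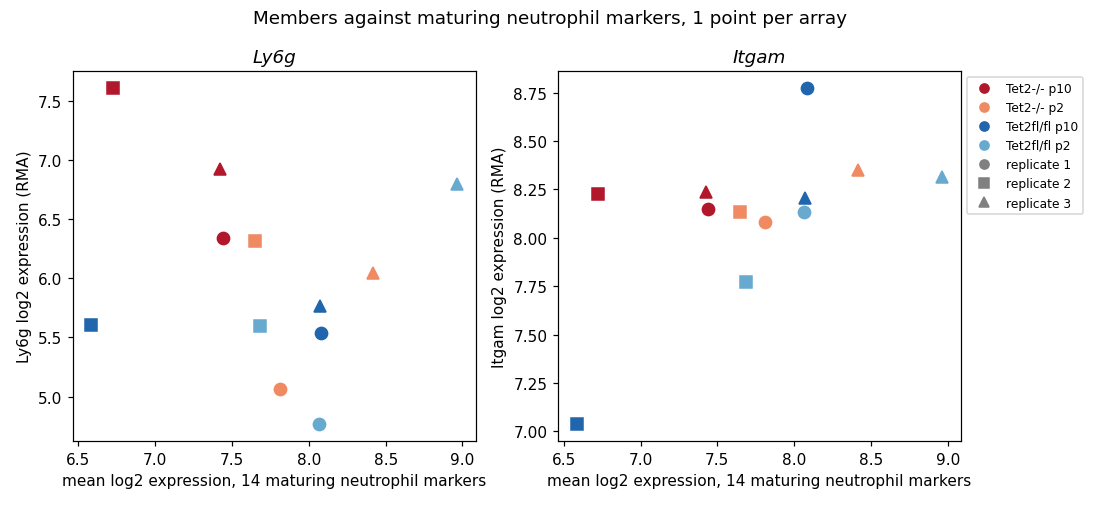
Log2 expression of Ly6g and of Itgam against the mean log2 value of 14 markers of maturing neutrophils, 1 point per array, coloured by group. Ly6g is highest in Tet2-/- cells at passage 10, where the marker mean is between 6.72 and 7.44; over the 12 arrays r is -0.21 for Ly6g and 0.59 for Itgam.

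Of 27 other genes of the Ly6 family, 22 were tested. In Tet2-/- cells Cd59a, which encodes an inhibitor of the complement membrane attack complex, rose between passages (0.65 ± 0.13, adjusted p = 0.0338). It was the 1 gene of the 22 to pass there, where 2.98% of all genes did. It read 10.51, 10.36 and 10.19 in Tet2-/- cells at passage 10 and 9.80, 9.43 and 9.87 at passage 2, against 9.64, 9.55 and 9.86 in Tet2fl/fl cells at passage 10 and 9.77, 9.87 and 9.92 at passage 2. All 3 Tet2-/- arrays of passage 10 lay above the 9 others, a pattern that was not counted over all genes. Groups did not overlap for 28.3% of all genes between passages in Tet2-/- cells and for 16.4% between genotypes at passage 10. The call was lost without any 1 of the 6 Tet2-/- arrays (adjusted p up to 0.0991) and in a fit of those 6 alone (0.0723). Between genotypes at passage 10 the difference of Cd59a was 0.67 (adjusted p = 0.0663, with the block 0.0372), and next came Lynx1 (-0.34, adjusted p = 0.277). At passage 2 nearest to passing were Ly6g5b (-0.39, adjusted p = 0.296) and Gpihbp1, which carries lipoprotein lipase in capillaries (0.22, adjusted p = 0.514).

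Cd34 encodes a sialomucin of stem and progenitor cells. It read 12.30, 11.75 and 11.87 in Tet2-/- cells at passage 10 and 12.23, 11.94 and 12.17 at passage 2, against 12.27, 11.56 and 12.06 in Tet2fl/fl cells at passage 10 and 12.31, 12.13 and 12.20 at passage 2. The groups overlapped in every comparison. The genotype difference was 0.0098 ± 0.18 at passage 10 (interval -0.39 to 0.41, adjusted p = 0.993) and -0.09 ± 0.18 at passage 2 (-0.49 to 0.30, adjusted p = 0.906). Between passages it was -0.14 ± 0.18 in Tet2-/- cells (adjusted p = 0.689) and -0.25 ± 0.18 in Tet2fl/fl cells (adjusted p = 0.649).

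Of 22 other surface proteins of progenitors, 18 were tested and none passed at either passage alone without the block. Kit, the receptor for SCF by which the starting marrow was enriched, was lower in Tet2-/- cells in the mean of both genotype differences (-0.82 ± 0.15, adjusted p = 0.0220). It read 10.36, 10.04 and 9.56 in Tet2-/- cells at passage 10 and 9.98, 9.83 and 9.69 at passage 2, against 11.14, 10.52 and 10.75 in Tet2fl/fl cells at passage 10 and 10.92, 10.44 and 10.63 at passage 2. All 6 Tet2-/- arrays lay below all 6 Tet2fl/fl arrays, a split that was not counted over all genes. Groups of 3 did not overlap for 16.4% of all genes at passage 10 and for 15.3% at passage 2. The difference of Kit was -0.82 at passage 10 (adjusted p = 0.161, with the block 0.0246) and -0.83 at passage 2 (adjusted p = 0.201, with the block 0.0418).

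The call of Kit was lost without Tet2-/- passage 10 replicate 2, Tet2-/- passage 2 replicate 1 or 2, or Tet2fl/fl passage 2 replicate 3 (adjusted p up to 0.0554). Flt3, the receptor of early lymphoid and myeloid progenitors, differed by 0.63 between genotypes at passage 2 (adjusted p = 0.135, with the block 0.0418), and Csf2ra, the GM-CSF receptor alpha chain, by -0.63 at passage 10 (adjusted p = 0.204). With the block, Kit and Eng, the endoglin gene (-0.51, adjusted p = 0.0346), were lower at passage 10, where 1.31% of all genes passed. In the mean of both genotype differences the block gave 3 lower genes of the list, Kit, Eng and Csf2ra, and 3 higher ones, Flt3, Podxl and Itga2b, against Kit alone without it. Over all genes 5.41% passed there with the block and 1.72% without it. For Flt3 that mean difference was 0.27, and its genotype difference changed between passages by -0.72. This interaction (limma, unadjusted p = 0.00112, adjusted p = 0.999, with the block 0.841) was larger in size than the 0.63 at passage 2. Flt3 was therefore not higher in Tet2-/- cells at both passages.

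Mast cells carry Kit and Fcer1a too. Fcer1a is itself 1 of the 11 markers used here, so their mean and counts are not independent of its level. Kit is not among them. The mean of 11 markers of mast cells and basophils ranged from 10.61 to 10.89 in Tet2-/- cells at passage 10 and from 10.75 to 11.11 at passage 2, against 11.30 to 11.69 in Tet2fl/fl cells at passage 10 and 11.36 to 11.48 at passage 2. At passage 10, 9 of the 11 differences between genotypes were negative and 1 marker passed (0.225% of all genes did), Slc6a4, which encodes a serotonin transporter (-2.98, adjusted p = 0.00589). Under the block 3 were lower, Slc6a4, the tryptase gene Tpsab1 and Fcer1a (1.31% of all genes passed). In the mean of both genotype differences, in which Kit passed, 2 markers were lower, Slc6a4 (-2.73, adjusted p = 0.000824) and Tpsab1 (-1.43, adjusted p = 0.0124), and 5 were with the block. In that contrast 1.72% of all genes passed, and 5.41% with the block. The part of such cells in the levels of Kit and Fcer1a was not tested.

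The replicate number accounted for much of the spread of several of these genes. In all 4 groups Cd34 was highest in replicate 1 and lowest in replicate 2, whereas Ly6c2 was lowest in replicate 1 and highest in replicate 2. Ly6g was lowest in replicate 1 and Fcgr3 lowest in replicate 2 in all 4 groups. Thus 4 of the 8 genes had the same number highest or lowest in every group, against 19.1% of all genes. The labels do not say what a replicate number marks.

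As a share of the sum of squares over the 12 arrays, the replicate number took 64.2% for Ly6c2 and 60.3% for Cd34, and the 4 groups took 24.8% and 20.1%. The medians over all genes were 17.2% for the number and 39.2% for the groups. For Ly6g the number took 30.4% and the groups 47.8%, and for Fcgr4 they took 3.03% and 13.9%. The SD within groups was 0.69 for Ly6g, above that of 99.0% of genes, 0.47 for Itgam (97.0%) and 0.09 for Fcgr2b (12.7%), with a median of 0.15 over all genes.

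**Figure D4:**
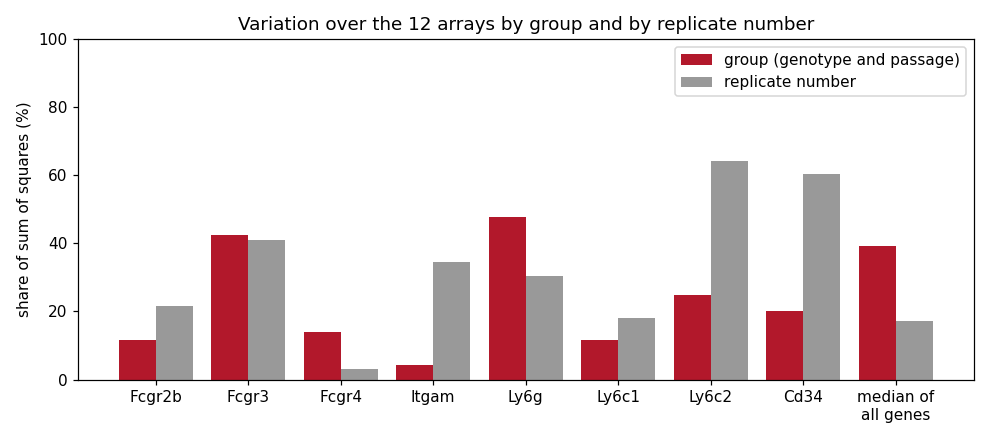
Share of each gene's sum of squares over 12 arrays, in percent, taken by the 4 groups and by the replicate number, with the medians of all genes. The replicate number takes 64.2% for Ly6c2 and 60.3% for Cd34, against a median of 17.2%.

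Over the 12 arrays, which share groups and replicate numbers, Ly6g had r = 0.77 with Ly6c2 and 0.43 with Ly6c1. With group means removed these were 0.69 and 0.70, so neither was the closer. Cd34 ran against Ly6c2 (-0.68), and Itgam correlated with Fcgr4 (0.74) and with Cd34 (0.61). The genes most like each member over the 12 arrays were Tmem115 (r = 0.83), Zc3h3 (0.82) and B4galt3 (0.82) for Fcgr2b, and Zfpm1 (0.89), Pfkm (0.88) and Pik3ap1 (0.87) for Fcgr3. For Fcgr4 they were Frat2 (0.93), Svil (0.89) and Zfp493 (0.83), and for Itgam Pcbp2, Mxi1 and Smim19 (0.91 each). For Ly6g they were Eif2d (0.95), Etfdh (0.91) and Hes2 (0.91), for Ly6c1 Spn (0.87), Zfp266 (0.86) and Ankrd13b (0.84), and for Ly6c2 Prodh2 (0.92), Grk3 (0.92) and Paip2b (0.91). For Cd34 they were Fgr (0.93), Ppp2r3a (0.91) and Fam160a2 (0.91). The closest r of the 8 genes lay between 0.83 and 0.95, and the median closest r of any gene tested was 0.92, so such values are common here.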

How the data were processed

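Each of 12 samples of sorted mouse cells gave 100 ng of total RNA for 1 whole-transcript array (GeneChip, Mouse Gene ST 2.0). The authors deposited log2 values made with RMA in Affymetrix Power Tools, per the submitters' processing notes. The tool's version is not given in the sources used here, and no raw intensity was read.

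There were 41345 rows. The 1814 rows annotated with several gene symbols were left out. Among them was a row shared by Cd34 and Gm16897, with group means of 4.50 to 4.86. Rows whose mean reached the 30th percentile (log2 4.70) were kept, names were updated by gene ID, and the row with the highest mean stood for each of 16860 genes. All 12 arrays entered 1 model with a mean per group (limma 3.58.1 in R 4.3.3; 8 residual and 3.33 prior degrees of freedom). Two-sided tests used limma's moderated statistic, with Benjamini-Hochberg adjustment over all genes in each of 7 contrasts and a threshold of 0.05. The steps were tested on simulated data.

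Arrays with the same replicate number deviated together from their group means (r = 0.201 to 0.517 over 18 pairs, against -0.369 to 0.0532 over 36 pairs of different numbers), so a fit with that number as a block was run too. Whether replicates came from separate cultures is not stated in the labels, and a p-value therefore reflects only how far these arrays spread, which may be technical. The number of arrays limits the precision. The members, the gene lists and the contrasts for both mean differences (genotype and passage) were chosen with earlier results of these data known. No p-value is therefore adjusted over a list alone. All members are named. From each list, named are up to 3 members with the largest change among those that passed, or the 2 nearest to passing. Elane, Mpo and S100a8 were named for their values on the low Itgam array. For each member the 3 genes closest in pattern are named. Alternatives covered normalization, the filter, limma's options, blocks, rows per gene and leaving out each array.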

Additional observations from a re-analysis of the deposited data

How the results depend on the processing

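With the replicate number as a block, none of the 8 genes was called in any of the 7 contrasts either; Ly6g came nearest (adjusted p = 0.0628 between passages in Tet2-/- cells, 0.0887 between genotypes at passage 10). Over all genes the block moved the calls between genotypes to 221, against 38 without it, at passage 10 and to 69, against 1, at passage 2. Between passages it moved them to 1339, against 503, in Tet2-/- cells and to 7, against 0, in Tet2fl/fl cells, and for the mean of both genotype differences to 912, against 290, for that of both passage differences to 2223, against 1310, and for the interaction to 1, against 0. Array weights gave 1 call among the 8 genes between passages in Tet2-/- cells (Ly6g), against 0, and the share of all genes called with them is not given here. Ly6c1 was not tested with the filter at the 50th percentile.

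The genotype difference of Ly6g at passage 10 lay between 0.99 and 1.63 with each array left out (adjusted p = 0.231 to 0.615). Differences that changed sign were uncalled before and after. With equal array medians they were Fcgr2b (-0.038) and Ly6c2 (-0.028) between genotypes at passage 2, Cd34 at passage 10 (-0.019), Fcgr2b between passages in Tet2-/- cells (0.024), Ly6c1 in the mean genotype difference (-0.0059) and Itgam in the mean passage difference (0.0045, with quantile normalization 0.034). With array weights they were Ly6c2 (-0.22) and Ly6g (-0.18) at passage 2, Cd34 at passage 10 (-0.0083), Fcgr2b between passages in Tet2-/- cells (0.028), and Itgam between passages in Tet2fl/fl cells (0.034) and in the mean passage difference (0.052). The cause was not tested.

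With single arrays left out, the ranges that crossed 0 between genotypes at passage 10 were -0.19 to 0.16 for Cd34, -0.41 to 0.14 for Fcgr4, -0.29 to 0.58 for Itgam and -0.50 to 0.13 for Ly6c1. At passage 2 they were -0.024 to 0.058 for Fcgr2b, -0.21 to 0.0094 for Fcgr3, -0.036 to 0.24 for Itgam, -0.15 to 0.27 for Ly6c2 and -0.39 to 0.63 for Ly6g. Between passages in Tet2-/- cells they were -0.053 to 0.049 for Fcgr2b, -0.34 to 0.014 for Fcgr4, -0.038 to 0.097 for Itgam and -0.44 to 0.19 for Ly6c1. In Tet2fl/fl cells they were -0.047 to 0.097 for Fcgr3, -0.0093 to 0.54 for Fcgr4, -0.45 to 0.42 for Itgam, -0.16 to 0.11 for Ly6c2 and -0.56 to 0.45 for Ly6g. For the interaction they were -0.099 to 0.26 for Cd34 and -0.40 to 0.47 for Itgam. For the mean genotype difference they were -0.14 to 0.035 for Cd34, -0.049 to 0.0027 for Fcgr2b, -0.016 to 0.094 for Fcgr3, -0.072 to 0.20 for Fcgr4, -0.086 to 0.35 for Itgam and -0.14 to 0.17 for Ly6c1. For the mean passage difference they were -0.0025 to 0.054 for Fcgr2b, -0.072 to 0.20 for Fcgr4, -0.22 to 0.22 for Itgam and -0.079 to 0.23 for Ly6c1. Low signal limits Ly6c1, which lay near the filter.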

Other observations

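Ly6a2, a separate gene of the Ly6 cluster on chromosome 15 near Ly6c2 and Ly6g, was singled out after its values were seen. It read 8.92, 9.18 and 8.38 in Tet2-/- cells at passage 10 and 9.48, 10.15 and 10.40 at passage 2, and 9.49, 7.79 and 9.02 in Tet2fl/fl cells at passage 10 against 9.42, 9.50 and 10.17 at passage 2. All Tet2-/- arrays of passage 10 lay below those of passage 2, whereas the passages overlapped in Tet2fl/fl cells. In Tet2-/- cells the passages did not overlap, in either direction, for 28.3% of all genes. In the mean of both passage differences Ly6a2 fell by 1.06 (limma, adjusted p = 0.0453, with the block 0.0402). There 7.77% of all genes passed, and 13.2% with the block. The call was lost without any 1 of 11 of the 12 arrays, Tet2fl/fl passage 10 replicate 1 being the exception (adjusted p up to 0.114), and also with equal array medians, with no filter and with a robust prior (0.0539 to 0.0624).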
